A study of Mus musculus with 10 samples.

Results

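The genes described here are Myc, its partner Max and a set of genes that MYC is known to induce for building ribosomes and feeding cell growth, 37 mouse genes in all. They were taken by name and not by any measured value. Every probe set whose annotated symbol, current or older, was one of the 37 names was included, which gave 67 of the 22690 probe sets in the table. Of these, 3 were the array maker's control probe sets for Tfrc. A probe set naming 1 gene alone was found for 35 of the 37 genes, and all 35 passed the filter on low intensity and were among the 8403 genes tested. No probe set was matched to Dkc1, and the probe set for Mrto4 carries several symbols, so these 2 genes were not analysed here. The set is of interest in these cells because Snf5, a core subunit of the SWI/SNF chromatin remodelling complex, is reported to bind MYC.

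MYC is a transcription factor that binds DNA as a pair with MAX, preferring the E-box sequence CACGTG, and it raises the expression of many genes of growth and metabolism. Ribosome biogenesis starts in the nucleolus, where RNA polymerase I transcribes ribosomal RNA. Small nucleolar ribonucleoproteins then modify that RNA, and processing factors cut it and assemble it into the small and the large subunit. In fibroblasts the process is known to follow growth and cell division, and MYC is known for driving it at each of these steps.

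RNA was measured on 10 Affymetrix arrays of primary mouse embryonic fibroblasts, cells grown from E13.5 embryos on a mixed background of C57BL/6 and 129. The groups were wild type (3 arrays), Snf5-/- (3 arrays) and Brg1-/- (4 arrays), where Brg1 is the SWI/SNF ATPase. For all 10 samples, wild type included, the labels describe retroviral delivery of Cre recombinase and selection in puromycin at 2.5 ug/ml. Cre acts only in cells that were infected, and neither the floxed alleles nor the promoter driving Cre is given in the sources used here. Whether replicate arrays stem from different embryos, or were cultured apart, is not in the labels, so p-values measure only the spread between these arrays, which may be technical. In such bulk RNA, fewer cells of a type and less RNA per cell cannot be told apart.

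The targeted genes went with the labels. Smarcb1, which encodes Snf5, had a quantile-normalized intensity of 773 ± 51.5 (SD, n = 3) in wild type and 298 ± 0.883 (n = 3) in Snf5-/- arrays. Smarca4, which encodes Brg1, had 2181 ± 196 (n = 3) in wild type and 516 ± 113 (n = 4) in Brg1-/- arrays, where replicate 4 was highest at 685. The 12 fibroblast markers were above background in every array. Their summed intensity was 98474 to 105519 in wild type and 124362 to 130712 in Snf5-/- arrays, which did not overlap. It was 95130 to 98801 in Brg1-/- replicates 1 to 3 and 121974 in replicate 4, and its part in the results was not tested. The median deposited intensity ranged from 146 to 234 between arrays, and the mean trimmed by 2% at each end was highest in wild type replicate 1 at 780 and lowest in Brg1-/- replicate 2 at 414. Values are therefore given after quantile normalization, which gives every array the same distribution, with the result on the deposited scale beside them. On the deposited scale the median log2 change of all 8403 genes was -0.27 in Snf5-/- and -0.47 in Brg1-/- against wild type, against 0.02 in both after normalization. A gene is said to pass the test where its limma p-value, adjusted by the Benjamini-Hochberg method over all 8403 genes, was under 0.05. All 35 genes were above background in every array, where background is taken, per array, as the brightest of 27 control probe sets against Bacillus subtilis.

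Brg1-/- replicate 4 stood apart from the other arrays of its group for these genes. It was the lowest Brg1-/- array in 28 of the 35 genes, or 80%, while it was lowest in 30.6% of all genes tested. Snf5-/- replicate 3 was the lowest of its group in 22 of the 35 genes, or 62.9%, against 33.4% of all genes. Counts of genes passing the test in Brg1-/- cells are given below with and without replicate 4, while counts of genes whose arrays did not overlap use all 10 arrays. Because replicate 4 was the lowest for most of these same genes, leaving it out raises their Brg1-/- means. The larger counts and medians without it follow in part from that choice and are not separate evidence about the set.

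**Figure D1:**
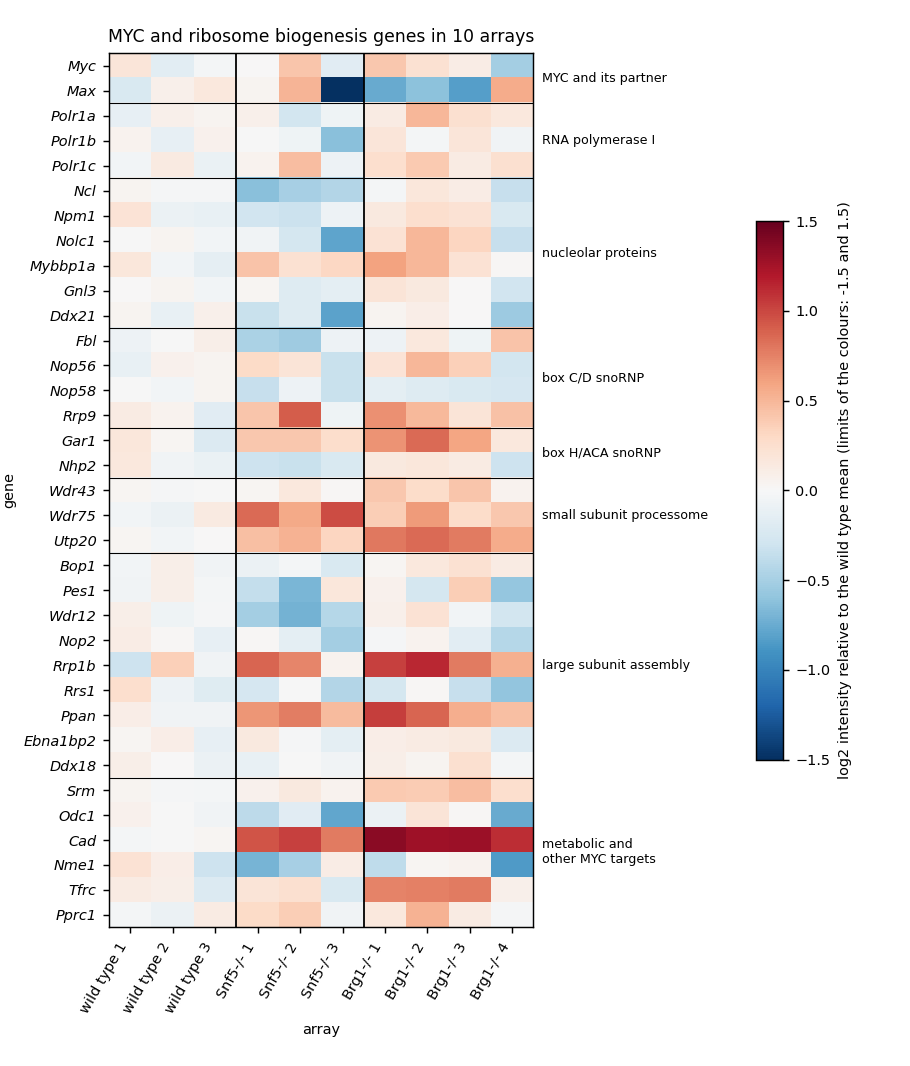
Quantile-normalized log2 intensity of the 35 genes relative to the wild type mean, with genes in rows grouped by role and the 10 arrays in columns. Red is above and blue below the wild type mean, with the colours ending at -1.5 and 1.5. The row of Cad is red in all 7 mutant arrays, the row of Ncl is blue in the 3 Snf5-/- arrays, and Brg1-/- replicate 4 is paler or bluer than the other Brg1-/- arrays in most rows.

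Promoter sequence was available from RefSeq (GRCm38.p6) for 31 of the 37 genes as 36 windows, each reaching from 250 bases before to 50 bases after an annotated start. No window was given for Myc, Npm1, Fbl, Bop1, Rrs1 and Srm. A total of 4 are printed, because they cover Cad and Ncl, which passed the test in opposite directions, Utp20, which holds an E-box and passed in both mutants, and Nop2, in which the E-box lies beside another motif. The windows are chr5:31054530-31054829 on the plus strand for Cad, chr1:86359406-86359705 on the minus strand for Ncl, chr10:88826765-88827064 on the minus strand for Utp20 and chr6:125131633-125131932 on the plus strand for Nop2. Capitals mark CACGTG, the E-box, CACGCG, a variant of it, and CCGGAA, the core of many ETS factor sites, each searched on both strands (CACGCG also as CGCGTG and CCGGAA also as TTCCGG).
Cad: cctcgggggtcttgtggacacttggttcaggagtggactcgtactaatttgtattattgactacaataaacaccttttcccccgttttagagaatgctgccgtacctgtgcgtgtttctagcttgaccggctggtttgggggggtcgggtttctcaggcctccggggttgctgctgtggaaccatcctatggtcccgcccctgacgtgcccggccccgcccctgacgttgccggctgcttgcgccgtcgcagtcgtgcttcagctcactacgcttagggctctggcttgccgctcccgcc
Ncl: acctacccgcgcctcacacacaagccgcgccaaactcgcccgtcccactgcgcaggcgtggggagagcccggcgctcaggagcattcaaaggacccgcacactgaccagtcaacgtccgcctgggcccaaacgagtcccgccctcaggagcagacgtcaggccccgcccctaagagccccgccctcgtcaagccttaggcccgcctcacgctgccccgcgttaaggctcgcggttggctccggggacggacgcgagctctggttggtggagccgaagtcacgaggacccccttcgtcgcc
Utp20: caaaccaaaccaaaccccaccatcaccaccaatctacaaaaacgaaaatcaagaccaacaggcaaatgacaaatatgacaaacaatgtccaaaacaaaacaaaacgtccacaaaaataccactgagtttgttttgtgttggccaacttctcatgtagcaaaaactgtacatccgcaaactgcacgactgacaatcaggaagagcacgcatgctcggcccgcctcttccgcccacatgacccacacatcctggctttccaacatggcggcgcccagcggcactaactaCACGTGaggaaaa
Nop2: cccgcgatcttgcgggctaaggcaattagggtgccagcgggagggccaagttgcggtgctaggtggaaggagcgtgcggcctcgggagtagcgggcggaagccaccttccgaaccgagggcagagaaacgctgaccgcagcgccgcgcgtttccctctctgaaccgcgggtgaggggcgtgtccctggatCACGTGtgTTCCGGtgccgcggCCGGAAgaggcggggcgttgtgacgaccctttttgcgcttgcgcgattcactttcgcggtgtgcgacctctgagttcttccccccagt
None of the 3 motifs was in the windows of Cad and Ncl, or in the 3 windows of Wdr12. Utp20 has CACGTG from 38 bases after the start, counting the start as base 1, and Nop2 has it from 60 bases before the start with CCGGAA on each strand just downstream. The E-box was in the windows of 7 of the 31 genes, 22.6%: Max, Mybbp1a, Wdr43, Utp20, Pes1, Nop2 and Nme1. It was in 12.3% of the 6844 tested genes with a window and 8.09% of all 27025 genes with one. CACGCG was in 29.0% of the 31 genes against 20.8% of tested genes, and CCGGAA in 35.5% against 32.5%. Of the 7 genes with CACGTG, only Utp20 passed the test against wild type on the quantile-normalized scale, in both mutants. Their median log2 change was -0.21 in Snf5-/- and -0.10 in Brg1-/- arrays, against -0.03 and 0.18 for the 22 measured genes whose windows lacked it. These matches describe letters in a window and are not measured binding.

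Myc itself showed no change beyond its spread between arrays. Its intensity was 780, 613 and 674 across the wild type replicates, 690, 917 and 611 across those of Snf5-/- and 909, 806, 738 and 483 across those of Brg1-/-. The 3 groups overlapped, and the highest and the lowest mutant arrays lay on both sides of wild type. The log2 change was 0.09 ± 0.22 (SE) in Snf5-/-, with a 95% interval from -0.39 to 0.56 and an adjusted p of 0.825, and 0.06 ± 0.20 in Brg1-/-, with an interval from -0.38 to 0.50 and an adjusted p of 0.85. Without normalization the changes were -0.21 (adjusted p = 0.555) and -0.43 (adjusted p = 0.118). Changes smaller than about these interval limits could not be resolved with this number of arrays.

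Max, the partner that lets MYC bind DNA, varied more between arrays of 1 genotype than between genotypes. It had 180, 224 and 235 across the wild type replicates, 217, 302 and 47.5 across those of Snf5-/- and 125, 139, 119 and 310 across those of Brg1-/-. Snf5-/- replicate 3 and the first 3 Brg1-/- replicates were below every wild type array, while Brg1-/- replicate 4 was above them. The log2 change was -0.53 ± 0.57 in Snf5-/- (adjusted p = 0.561) and -0.41 ± 0.53 in Brg1-/- (adjusted p = 0.607). The deposited scale gave -0.82 (adjusted p = 0.227) and -0.83 (adjusted p = 0.127).

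Among the 35 genes, 4 passed the test as higher in Snf5-/- than in wild type cells, namely Cad, Wdr75, Utp20 and Ppan, and 2 as lower, namely Ncl and Wdr12. Of all genes tested, 10.6% were higher and 7.47% lower, so the shares of 11.4% and 5.71% among the 35 were close to the background. The median log2 change of the 35 was -0.09, beside 0.02 for all genes. In Brg1-/- cells 8 passed as higher, Cad, Utp20, Ppan, Srm, Rrp1b, Gar1, Tfrc and Wdr75, or 22.9% against a background of 14.9%. None passed as lower, against 12.9% of all genes, and none was lower at an unadjusted limma p under 0.05. All counts here use the brightest probe set of each gene, and weaker probe sets of some genes differed in direction. The median was 0.11 beside 0.02 for all genes. Both comparisons use the same 3 wild type arrays, so their results are not independent. Without Brg1-/- replicate 4, 10 genes passed as higher in Brg1-/- cells (background 14.2%), with Mybbp1a and Wdr43 added, none as lower (background 12.4%, with none lower at an unadjusted limma p under 0.05), and the median was 0.20. In Snf5-/- cells, leaving out wild type replicate 2 gave 2 genes higher, leaving out wild type replicate 1 or 3 gave 1 lower, and leaving out Brg1-/- replicate 4, which enters the shared estimate of spread and the normalization, gave 4 lower. In Brg1-/- cells, leaving out Brg1-/- replicate 2 gave 5 higher. No share of all genes is given beside the counts in these last fits. Counting genes whose arrays did not overlap, in Snf5-/- against wild type 7 were wholly higher and 8 wholly lower, beside 19.5% and 16.1% of all genes. In Brg1-/- against wild type 9 were wholly higher and 1, Nop58, wholly lower, beside 20.9% and 18.4%.

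On the deposited scale most of these genes lay below wild type in both mutants, as did most genes of the array. There, 1 of the 35 passed as higher in each mutant, Cad, against 3.15% of all genes in Snf5-/- and 3.43% in Brg1-/- cells. In Snf5-/- cells 9 passed as lower, Ncl, Ddx21, Fbl, Nolc1, Nop58, Npm1, Nhp2, Odc1 and Wdr12, or 25.7% against 16.1% of all genes. In Brg1-/- cells 10 passed as lower, Ncl, Npm1, Gnl3, Ddx21, Nop58, Nhp2, Nop2, Rrs1, Odc1 and Nme1, or 28.6% against 44.1%. Without Brg1-/- replicate 4, 8 passed as lower (41.3% of all genes), since Npm1, Gnl3, Ddx21 and Nhp2 no longer passed and Fbl and Max did, and Rrp1b joined Cad as higher (3.12%). The genes that passed in the same direction on both scales were Cad (higher in both mutants), Ncl and Wdr12 (both lower in Snf5-/-). Wild type replicate 1 had the highest trimmed mean of the 10 arrays, and without it the deposited scale gave 2 lower genes in Snf5-/- and 4 in Brg1-/- cells, while without wild type replicate 3 it gave 13 and 14. The lower genes in Snf5-/- were 5 without wild type replicate 2 or Snf5-/- replicate 1 and 4 without Snf5-/- replicate 2. No share of all genes is given for these fits, so whether the counts follow all genes of the array was not tested.

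**Figure D2:**
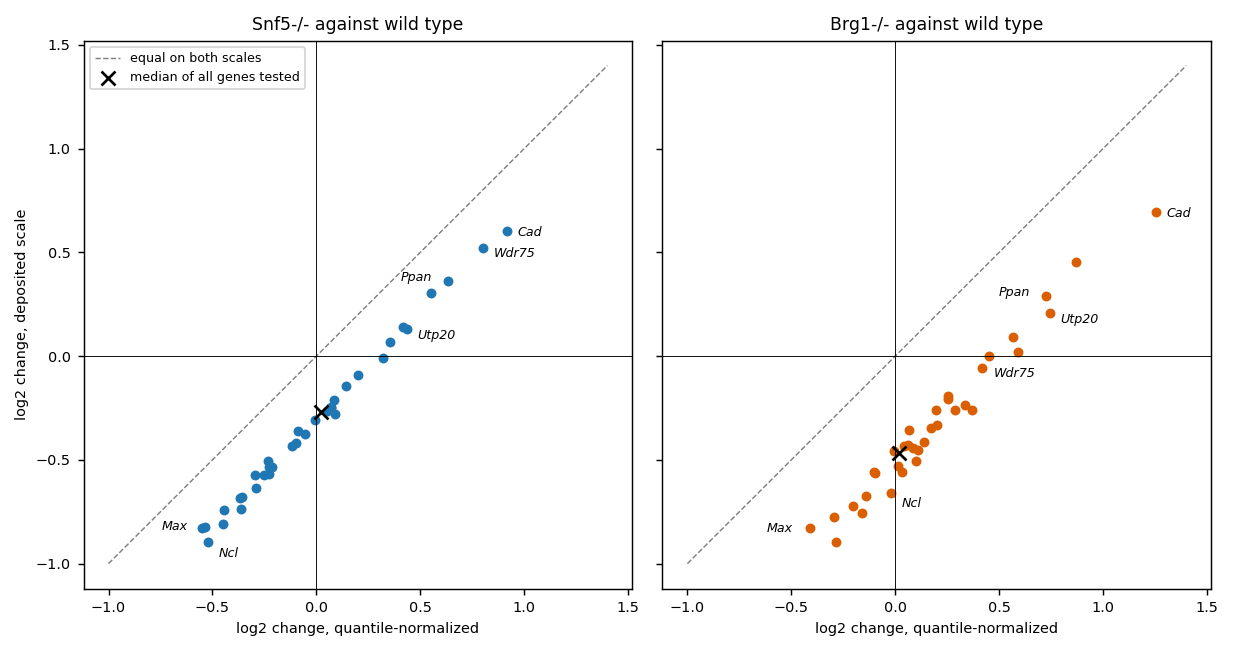
Log2 change against wild type of the 35 genes, with the quantile-normalized scale on the horizontal and the deposited scale on the vertical axis, for Snf5-/- (left) and Brg1-/- cells (right). The cross is the median of all 8403 genes, which lies at 0.02 on the horizontal axis in both panels and at -0.27 and -0.47 on the vertical axis. All 35 genes lie below the dashed line of equal values.

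Cad rose in both mutants and had the largest change of the 35 genes after quantile normalization, though not on the deposited scale. It encodes the enzyme that carries out the first steps of pyrimidine synthesis and is a long-studied MYC target. Its intensity was 911, 932 and 954 across the wild type replicates, 1790, 1902 and 1605 across those of Snf5-/- and 2391, 2244, 2271 and 2013 across those of Brg1-/-. Every Brg1-/- array lay above every Snf5-/- array, and every mutant array above every wild type array. Cad was 1.89-fold of wild type in Snf5-/- (log2 change 0.92 ± 0.10, adjusted p = 9.55e-05) and 2.39-fold in Brg1-/- cells (1.25 ± 0.09, adjusted p = 3.94e-06). The deposited values gave log2 changes of 0.60 (adjusted p = 0.0229) and 0.70 (adjusted p = 0.00253). The Snf5-/- call on that scale was lost without wild type replicate 2 or 3 or Snf5-/- replicate 1 or 2, with an adjusted p of 0.0895 at most. A second probe set of Cad, 1452830_s_at, gave 0.98 and 1.25 on the quantile-normalized scale. Between the mutants the log2 difference was 0.34 ± 0.09 and did not pass the test (adjusted p = 0.0622).

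The other members outside the ribosome pathway include 2 enzymes of polyamine synthesis. Srm, spermidine synthase, had a mean of 3387 ± 87.4 (SD) over the wild type arrays, 3605 ± 128 over the Snf5-/- arrays and 4384 ± 260 over the Brg1-/- arrays. All 4 Brg1-/- arrays lay above the other 6. Replicates 1 to 4 of Brg1-/- read 4440, 4421, 4649 and 4026. The log2 change of Srm in Brg1-/- was 0.37 ± 0.07 (adjusted p = 0.00328), but -0.26 (adjusted p = 0.173) on the deposited scale. Odc1, ornithine decarboxylase, had a log2 change of -0.45 ± 0.21 in Snf5-/- (adjusted p = 0.168) and -0.16 ± 0.20 in Brg1-/- (adjusted p = 0.588). By this brightest probe set Odc1 passed as lower only on the deposited scale, at -0.81 and -0.76. A weaker probe set, 1437711_x_at, had normalized values of 2005 to 2104 in wild type, 1141 to 1910 in Snf5-/- and 1016 to 1724 in Brg1-/- arrays. For it both mutants lay wholly below wild type, while 1427364_a_at overlapped wild type in both. Nme1, a nucleoside diphosphate kinase, was measured by a probe set of the type that can also bind related transcripts, and had changes of -0.36 ± 0.25 and -0.28 ± 0.23, neither passing. Pprc1, a coactivator of the PGC-1 family, had 0.20 ± 0.16 and 0.20 ± 0.15, neither passing.

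Tfrc, the transferrin receptor that imports iron, gave different results by probe set. Its brightest, 1452661_at, read 1766, 1719 and 1405 across the wild type replicates, 1852, 1922 and 1384 across those of Snf5-/- and 2712, 2744, 2787 and 1717 across those of Brg1-/-. The first 3 Brg1-/- arrays were above all others and replicate 4 was within the wild type range. The log2 change in Brg1-/- was 0.59 ± 0.18 (adjusted p = 0.0266), and 0.02 on the deposited scale. Leaving out any of wild type replicates 2 and 3 or Brg1-/- replicates 1 to 3 raised the adjusted p over the threshold, to 0.114 at most. A weaker probe set, 1422966_a_at, had 312, 362 and 443 across the wild type replicates, 127, 280 and 164 across those of Snf5-/- and 725, 605, 705 and 480 across those of Brg1-/-. For it the 3 genotypes did not overlap, with log2 changes of -1.04 ± 0.26 in Snf5-/- (adjusted p = 0.0192) and 0.75 ± 0.24 in Brg1-/- (adjusted p = 0.0418) when every probe set was fitted on its own. The deposited values gave -1.31 and 0.30, of which the first passed.

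**Figure D3:**
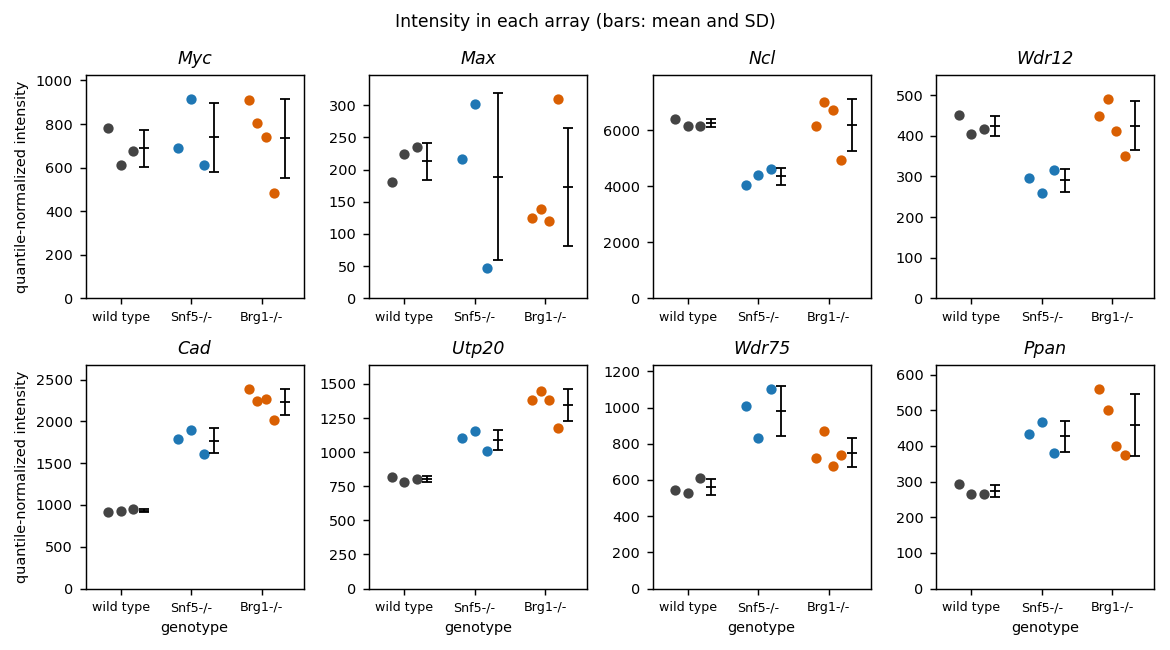
Quantile-normalized intensity of 8 genes in each array, with a point per array, genotypes along the horizontal axis and bars for the mean and SD (n = 3, 3 and 4). Cad and Utp20 separate all 3 genotypes, the Snf5-/- arrays of Ncl and Wdr12 lie below all others, and the points of Myc overlap between genotypes.

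Among the nucleolar proteins, Ncl fell in Snf5-/- cells on both scales. It encodes nucleolin, an abundant protein of the nucleolus that binds ribosomal RNA and its genes. Ncl had 6406, 6164 and 6155 across the wild type replicates, 4026, 4416 and 4614 across those of Snf5-/- and 6137, 7021, 6719 and 4918 across those of Brg1-/-. All 3 Snf5-/- arrays were below the other 7, and Brg1-/- replicate 4 was the next lowest. The log2 change in Snf5-/- was -0.52 ± 0.12 (adjusted p = 0.00974), and -0.90 (adjusted p = 0.0016) on the deposited scale. In Brg1-/- cells it was -0.02 ± 0.11 (adjusted p = 0.897) after normalization, while the deposited scale gave -0.66 (adjusted p = 0.00333). Of 4 Ncl probe sets, 1415773_at also passed in Snf5-/- at -0.74 ± 0.17 (adjusted p = 0.0115), and 1415772_at and 1456528_x_at had -0.31 and -0.29 without passing.

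The other 5 nucleolar genes did not pass against wild type on the quantile-normalized scale. Npm1, nucleophosmin, a chaperone of ribosome assembly, had log2 changes of -0.23 ± 0.13 in Snf5-/- and 0.10 ± 0.12 in Brg1-/- cells. Its second probe set, 1432416_a_at, passed in Brg1-/- at 0.40 ± 0.11 (adjusted p = 0.0206), but was at -0.25 on the deposited scale. Nolc1, which carries small nucleolar particles, had -0.37 ± 0.22 and 0.17 ± 0.20, and its weaker probe set 1428870_at passed in Snf5-/- at -1.29 ± 0.29 (adjusted p = 0.0107), with -1.55 on the deposited scale. The helicase gene Ddx21 had -0.44 ± 0.19 and -0.10 ± 0.18. Its weaker probe set 1448270_at had 638 to 662 in wild type and 340 to 610 in Brg1-/- arrays, wholly lower, and overlapped wild type in Snf5-/-. Gnl3, nucleostemin, had -0.10 ± 0.13 and 0.01 ± 0.12. Mybbp1a encodes a nucleolar protein that binds MYB. By the brightest probe set it was the one with positive values in both, 0.32 ± 0.15 and 0.33 ± 0.14. These turned to -0.01 and -0.24 on the deposited scale. The second Mybbp1a probe set, 1423430_at, went the other way for Snf5-/-, with a normalized mean of 1151 beside the wild type mean of 1264. Its Brg1-/- mean was higher, at 1478. Array values of this probe set overlapped wild type for each mutant. With deposited values, Npm1 and Ddx21 passed as lower in both mutants, Nolc1 in Snf5-/- and Gnl3 in Brg1-/-.

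The small subunit processome, the particle that first folds and cuts the RNA of the small subunit, is represented by Utp20, Wdr75 and Wdr43. Utp20 and Wdr75 passed as higher in both mutants on the quantile-normalized scale and in neither on the deposited scale. Utp20 had 821, 781 and 806 across the wild type replicates, 1100, 1152 and 1008 across those of Snf5-/- and 1386, 1447, 1382 and 1177 across those of Brg1-/-. The 3 genotypes did not overlap. The log2 change was 0.43 ± 0.11 in Snf5-/- (adjusted p = 0.0146) and 0.74 ± 0.10 in Brg1-/- (adjusted p = 0.00022), and 0.13 and 0.21 on the deposited scale. Leaving out wild type replicate 2 ended the Snf5-/- call (adjusted p = 0.0582), as did scaling the arrays to a common median. That scaling also ended the Brg1-/- calls of Gar1, Srm and Tfrc.

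Wdr75 had its larger change in Snf5-/- cells, though the difference between the mutants did not pass (-0.38 ± 0.13, adjusted p = 0.112). It had 543, 526 and 612 across the wild type replicates, 1007, 832 and 1104 across those of Snf5-/- and 720, 868, 676 and 740 across those of Brg1-/-. All 7 mutant arrays lay above wild type, and the mutants overlapped. The log2 change was 0.80 ± 0.14 in Snf5-/- (adjusted p = 0.00195) and 0.42 ± 0.13 in Brg1-/- (adjusted p = 0.0275). On the deposited scale it was 0.52 (adjusted p = 0.0738) in Snf5-/- and turned to -0.06 in Brg1-/-. After normalization the Brg1-/- call was lost without wild type replicate 1 or 2 or Brg1-/- replicate 2 (adjusted p of 0.103 at most), and with a common median, the mean of probe sets or a replicate block. Wdr43 did not pass, with 0.07 ± 0.11 and 0.29 ± 0.10 (adjusted p = 0.0588).

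Large subunit assembly held 9 measured genes and moved in both directions in Snf5-/- cells. Wdr12 works in a complex with Pes1 and Bop1 that is needed for maturation of the large subunit. Wdr12 had 452, 404 and 417 across the wild type replicates, 296, 260 and 315 across those of Snf5-/- and 449, 492, 412 and 349 across those of Brg1-/-. The Snf5-/- arrays were below all others. The log2 change in Snf5-/- was -0.55 ± 0.15 (adjusted p = 0.0224), and -0.83 (adjusted p = 0.00991) on the deposited scale. After normalization the call was lost, with an adjusted p of at most 0.0741, without wild type replicate 1, wild type replicate 3 or Snf5-/- replicate 2. Pes1 had -0.29 ± 0.24 and Bop1 had -0.12 ± 0.10 in Snf5-/- cells, neither passing, and in Brg1-/- cells all 3 genes of this complex were between -0.10 and 0.14 without passing.

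Ppan and Rrp1b, a factor of large subunit assembly and a nucleolar protein of the same pathway, had higher normalized means in both mutants by their brightest probe sets. Ppan had 293, 265 and 265 across the wild type replicates, 432, 467 and 379 across those of Snf5-/- and 560, 501, 399 and 373 across those of Brg1-/-. Every mutant array was above wild type. The log2 change was 0.63 ± 0.16 in Snf5-/- (adjusted p = 0.0195) and 0.72 ± 0.15 in Brg1-/- (adjusted p = 0.0045). The deposited scale gave 0.36 and 0.29, neither passing, and the Snf5-/- call after normalization was lost without wild type replicate 2 or 3 or Snf5-/- replicate 1 or 2. Rrp1b read 185, 293 and 220 across the wild type replicates, 417, 380 and 238 across those of Snf5-/- and 466, 499, 392 and 332 across those of Brg1-/-. The Brg1-/- arrays lay above wild type, and Snf5-/- replicate 3 within its range. Its log2 change was 0.55 ± 0.24 in Snf5-/- (adjusted p = 0.133) and 0.87 ± 0.22 in Brg1-/- (adjusted p = 0.0124), where the call was lost without wild type replicate 1, and 0.31 and 0.45 on the deposited scale, neither passing. Rrp1b probe set 1452119_at had 152.2 to 281.3 in wild type, 177.8 to 318.9 in Snf5-/- and 236.3 to 275.0 in Brg1-/- arrays. For 1456117_at the ranges were 216.5 to 289.9, 192.8 to 261.3 and 272.5 to 345.7. Both probe sets overlapped wild type in each mutant, and 1456117_at had a lower mean in Snf5-/- than in wild type. The methyltransferase gene Nop2 had -0.21 ± 0.16 and -0.14 ± 0.15. Rrs1 had -0.23 ± 0.17 and -0.29 ± 0.16. By their brightest probe sets, Ebna1bp2 and the helicase gene Ddx18 lay between -0.05 and 0.09 in both mutants. None of these 4 passed by the brightest probe set after normalization, and Nop2 and Rrs1 passed as lower in Brg1-/- on the deposited scale. Weaker probe sets, given as normalized array values only, differed. Ebna1bp2 1437512_x_at had 110.8 to 185.2 in Brg1-/- and 217.8 to 285.2 in wild type arrays. Ddx18 1416070_a_at had 999.1, 941.9 and 401.4 across the Snf5-/- replicates, beside 399.6 to 449.3 in wild type. Ddx18 1456000_at had 140.5 to 220.9 in Brg1-/- and 86.4 to 135.2 in wild type. In the other mutant each overlapped wild type.

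The genes of the RNA polymerase I enzyme and of the small nucleolar particles showed few changes beyond their spread. Polr1a, its largest subunit, had -0.09 ± 0.14 and 0.25 ± 0.13. Polr1b had -0.23 ± 0.18 and 0.07 ± 0.17, and Polr1c, which is shared with RNA polymerase III, had 0.14 ± 0.15 and 0.25 ± 0.14. None of the 3 passed in either mutant. Among proteins of the box C/D particles, which guide methylation of ribosomal RNA, Fbl, the methyltransferase fibrillarin, had -0.36 ± 0.15 in Snf5-/- (adjusted p = 0.128) and 0.11 ± 0.14 in Brg1-/-. Nop58 had -0.25 ± 0.11 and -0.21 ± 0.10, Nop56 had 0.05 ± 0.20 and 0.20 ± 0.19, and Rrp9 had 0.42 ± 0.21 and 0.45 ± 0.20, none passing. A second Nop56 probe set, 1455035_s_at, differed, with normalized values of 764, 688 and 632 across the Snf5-/- replicates. These lay wholly below the 886 to 928 of wild type, while its Brg1-/- arrays, at 622 to 928, overlapped wild type. With deposited values, Fbl passed as lower in Snf5-/- and Nop58 in both mutants. Of the box H/ACA particles, which guide pseudouridylation, Gar1 read 573, 518 and 439 across the wild type replicates, 670, 670 and 610 across those of Snf5-/- and 807, 915, 764 and 564 across those of Brg1-/-. Only Brg1-/- replicate 4 of the 7 mutant arrays fell within the wild type range. Gar1 passed as higher in Brg1-/- at 0.57 ± 0.16 (adjusted p = 0.0179), with 0.09 on the deposited scale. That call was lost without wild type replicate 3 or Brg1-/- replicate 2. Nhp2 had -0.29 ± 0.13 and 0.03 ± 0.12, and on the deposited scale it passed as lower in both.

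**Figure D4:**
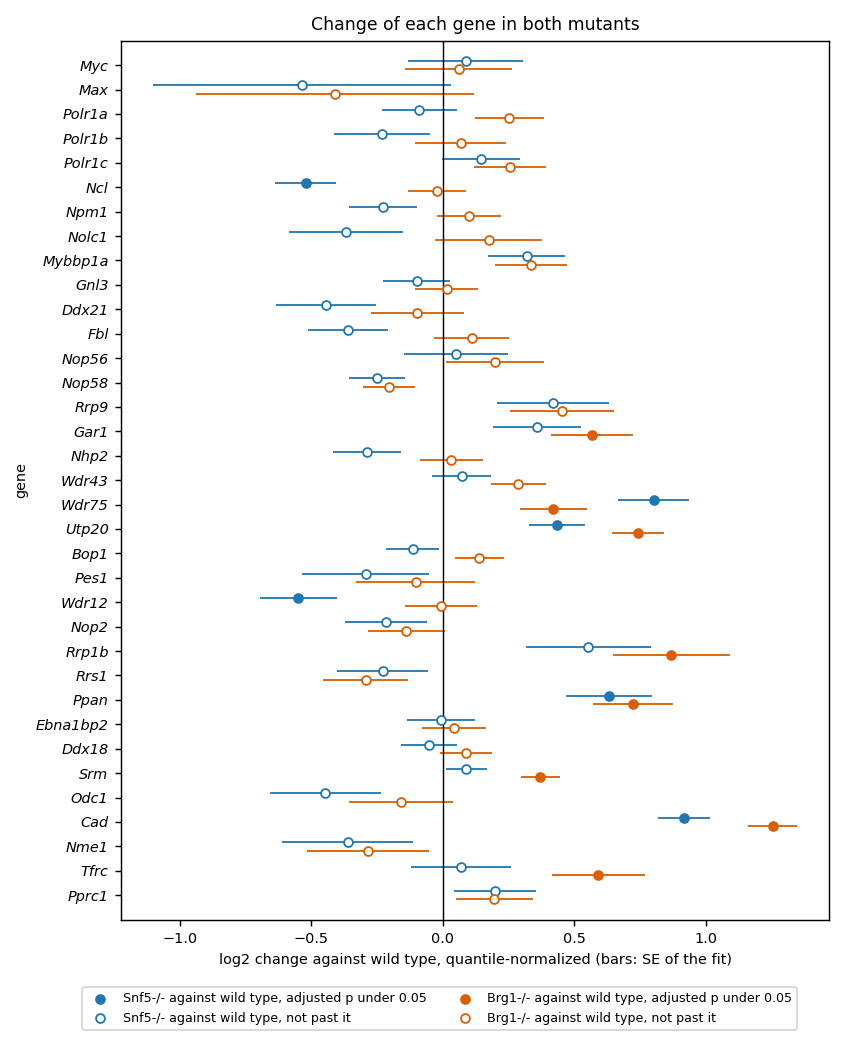
Log2 change of each of the 35 genes against wild type on the quantile-normalized scale, with bars for the SE of the fit, blue for Snf5-/- and orange for Brg1-/-, filled where the adjusted p was under 0.05. In Snf5-/- 6 points are filled and in Brg1-/- 8, with Cad farthest to the right in both; on the deposited scale Ncl and Wdr12 stay lower in Snf5-/- and Cad higher in both, while Wdr75 and Srm turn below 0 in Brg1-/-.

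After quantile normalization, the direct comparison of the mutants placed most of these genes higher in Brg1-/- than in Snf5-/- cells. There 31 of the 35 had a positive log2 difference, with a median of 0.21 beside -0.01 for all genes. Of all 8403 genes, 4353 were below 0. On the deposited scale 13 of the 35 had the other sign. The calls that follow are after normalization unless the deposited scale is named. Ncl, at 0.50 ± 0.11 (adjusted p = 0.028), and Wdr12, at 0.54 ± 0.14 (adjusted p = 0.0455), passed as higher, 5.71% against 2.09% of all genes, and none passed as lower against 2.27%, with 1 (Wdr75) lower at an unadjusted limma p under 0.05. Both calls were lost in several of the fits that left out 1 array, 5 of 10 for Ncl and 8 of 10 for Wdr12. On the deposited scale none of the 35 passed in either direction (0.369% and 3.93% of all genes), and 0 were higher and 1 lower at an unadjusted limma p under 0.05. There the median difference was 0.02, beside -0.20 for all genes. Without Brg1-/- replicate 4, 9 genes passed as higher after normalization against 2.81% of all genes: Ncl, Npm1, Nolc1, Nhp2, Utp20, Wdr12, Srm, Cad and Tfrc. As this replicate was the lowest of its group for most of the 35, a rise without it follows in part from leaving it out. The median was then 0.31 beside -0.01, and none passed as lower (3.08% of all genes, with 1 of the 35 lower at an unadjusted limma p under 0.05). Leaving out any 1 wild type array gave 1 gene higher, and leaving out Snf5-/- replicate 1 or 2 or Brg1-/- replicate 1, 2 or 3 gave 0. With all 10 arrays, the Brg1-/- values of 7 genes lay wholly above the Snf5-/- values and those of none wholly below, beside 8.27% and 8.66% of all genes. The 7 were Polr1a, Ncl, Utp20, Bop1, Wdr12, Srm and Cad.

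**Figure D5:**
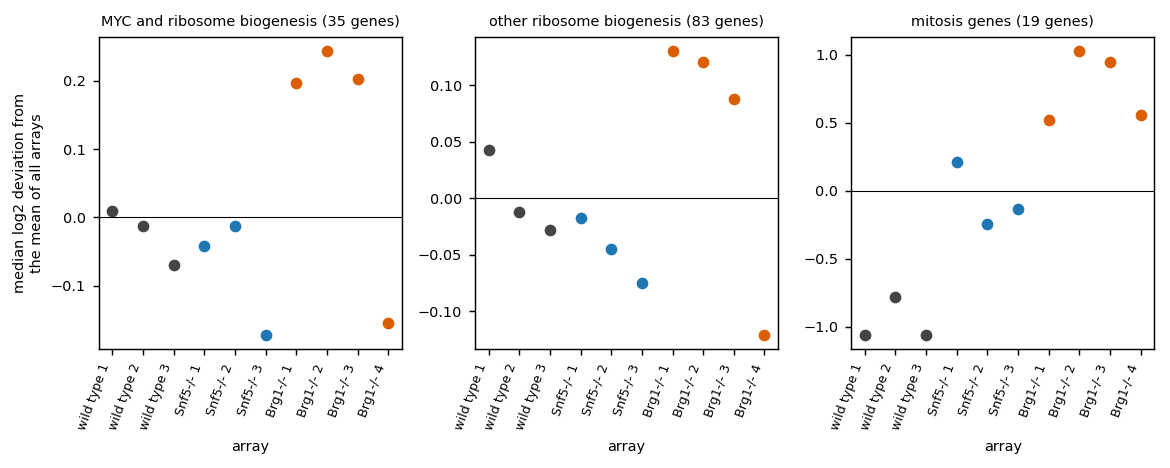
Median log2 deviation from the mean of all 10 arrays, after quantile normalization, for the 35 genes, 83 other ribosome biogenesis genes and 19 mitosis genes, with a point per array (grey wild type, blue Snf5-/-, orange Brg1-/-). The vertical axes differ between the panels. Brg1-/- replicates 1 to 3 lie between 0.20 and 0.24 for the 35 genes and replicate 4 at -0.15, while for mitosis genes all 4 Brg1-/- arrays are above every other array.

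Other genes of the ribosome pathway passed in both directions after normalization. Of 81 further ribosome biogenesis genes tested, 3 passed as higher and 4 as lower in Snf5-/-, and 8 and 5 in Brg1-/- cells, or 9.88% and 6.17%, below the shares of all genes. Without Brg1-/- replicate 4 the Brg1-/- counts were 12 and 4. Their median log2 change was -0.05 and 0.05. On the deposited scale none was higher (also none at an unadjusted limma p under 0.05), beside 3.15% and 3.43% of all genes. There 14 and 35 were lower, or 17.3% and 43.2%, close to the 16.1% and 44.1% of all genes. The latter count was 22 without Brg1-/- replicate 4, beside 41.3% of all genes. Nsa2, a large subunit factor, had 0.65 ± 0.11 in Brg1-/- (adjusted p = 0.000954). Ubtf, the RNA polymerase I factor UBF, had 0.51 ± 0.11 (adjusted p = 0.00464). Both were near 0 on the deposited scale, at 0.07 and -0.01. Ddx54 and Surf6 were lower in Brg1-/- on both scales, at -0.48 ± 0.09 and -0.68 ± 0.17 after normalization. Over the 83 of these genes with a probe set, 2 of which missed the filter, Brg1-/- replicate 4 had the lowest median deviation of the 10 arrays, at -0.12. Of 43 ribosomal protein genes, 3 were higher and 1 lower in Snf5-/-, and 7 and 3 in Brg1-/- cells, with and without replicate 4. In Snf5-/- these were 6.98% and 2.33%, beside 10.6% and 7.47% of all genes. In Brg1-/- they were 16.3% and 6.98%, beside 14.9% and 12.9%. Rps15, at 0.35 ± 0.07 and 0.47 ± 0.06, passed in both but was at 0.05 and -0.01 on the deposited scale, and Rps25 passed as lower in Brg1-/- at -0.86 ± 0.15.

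The wider MYC network, and other genes that MYC is known to induce or repress, held genes that passed in each direction. Of 17 network genes tested, 2 were higher and 2 lower in Snf5-/-, 11.8% each beside 10.6% and 7.47% of all genes. In Brg1-/- cells 1 was higher and 1 lower, 5.88% each beside 14.9% and 12.9%, and 3 and 1 without replicate 4. Mxd4 and Mnt, which compete with MYC for MAX, had 0.99 ± 0.23 (adjusted p = 0.0125) and -0.48 ± 0.13 (adjusted p = 0.0224) in Snf5-/- cells. Skp2, of a ubiquitin ligase, passed as higher in both mutants at 0.64 ± 0.20 and 0.87 ± 0.19, and Huwe1, a ubiquitin ligase that acts on MYC, as lower at -0.34 ± 0.10 and -0.29 ± 0.09. With deposited values, Skp2 and Mxd4 did not pass, and Mnt and Huwe1 were lower in both mutants. Of 36 other MYC-induced genes, 4 were higher and 1 lower in Snf5-/-, or 11.1% and 2.78%, beside 10.6% and 7.47% of all genes. In Brg1-/- cells 7 were higher and 2 lower, or 19.4% and 5.56%, beside 14.9% and 12.9%. Without replicate 4 the counts were 11 and 1, with 14.2% and 12.4% of all genes passing. Examples were Cdk4 at 0.39 ± 0.08 and 0.43 ± 0.08 (0.03 and -0.20 on the deposited scale) and the lactate transporter gene Slc16a1 at 0.88 ± 0.21 and 0.84 ± 0.20. None of the 36 was higher on the deposited scale, where 2 in Snf5-/- and 0 in Brg1-/- were higher at an unadjusted limma p under 0.05. On that scale 10 were lower in Snf5-/- and 17 in Brg1-/- cells. These were 27.8% and 47.2%, beside 16.1% and 44.1% of all genes. Of 13 genes that MYC is known to repress, 1 was higher in Snf5-/-, and 1 was higher and 3 lower in Brg1-/- cells, with and without replicate 4. The 3 are 23.1% of the 13, beside 12.9% of all genes. On the deposited scale 5 of the 13 were lower in Brg1-/- cells, or 38.5%, beside 44.1% of all genes. There none of the 13 passed in Snf5-/- cells, where 2 were lower at an unadjusted limma p under 0.05. Cdkn1a, an inhibitor of cyclin-dependent kinases, had 0.22 ± 0.11 in Snf5-/- without passing and fell by 0.64 in Brg1-/- (SE 0.10, adjusted p = 0.000746), with a difference between the mutants of -0.86 ± 0.10 (adjusted p = 0.00142). Cdkn1a fell by 1.26 on the deposited scale.

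Genes of mitosis differed between the genotypes, the summed level of epithelial markers was lowest in the Brg1-/- arrays and that of leukocyte markers was high in 1 array. Their part in these results was not tested. Of 19 mitosis genes, 16 were higher in Snf5-/- and 19 in Brg1-/- cells after normalization, and 8 and 18 on the deposited scale, with the same Brg1-/- counts without replicate 4. Their summed intensity was 6476 to 8070 across the wild type replicates, 11343 to 16805 across those of Snf5-/- and 20689 to 27312 across those of Brg1-/-. Of 16 leukocyte markers the summed intensity was 12519 in Snf5-/- replicate 2, beside 2826 to 6674 in the other 9 arrays, and in each array 2 to 5 of the 16 were at or below background. Of the 12 that passed the filter, 2 (C1qb and C1qc) passed as higher in each mutant on both scales, 16.7% each. Beside them stood 10.6% and 14.9% of all genes after normalization, and 3.15% and 3.43% on the deposited scale. None was lower after normalization, and 1 was lower in Brg1-/- on the deposited scale. Leaving out Snf5-/- replicate 2 ended the calls of Wdr12 and Ppan in Snf5-/- cells and kept those of Cad, Ncl, Wdr75 and Utp20. The 9 epithelial markers summed to 1384 to 1755 across the wild type replicates, 1045 to 1598 across those of Snf5-/- and 796 to 991 across those of Brg1-/-. The 7 endothelial markers summed to 387 to 564 over all arrays, with overlap between genotypes and with 3 to 5 at or below background. Only 2 passed the filter, and they moved in opposite directions. Tek passed as higher in both mutants on both scales, at 1.41 ± 0.33 and 1.89 ± 0.31 after normalization. Kdr passed as lower in Brg1-/- on both scales, at -0.79 ± 0.19 after normalization, and in Snf5-/- only on the deposited scale, at -0.83.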

How the data were processed

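The deposited table holds MAS5 intensity values on a linear scale, as the authors made them, with MAS5 named in the submitters' processing notes; no source used here states the version, scaling target or filters. The table had 22690 probe sets, 0 values at or below 0 and 0 identical array pairs. Log2 values were quantile-normalized. The 20380 probe sets naming 1 gene, controls left out, were used (691 named several and 1606 none, controls included), and the one with the highest mean stood for its gene. It had to reach the 40th percentile of its array in at least 3 arrays. limma 3.58.1 (R 4.3.3) fitted the 3 groups with an intensity trend (7 residual degrees of freedom), two-sided, with Benjamini-Hochberg adjustment within each of 3 comparisons. The labels do not say that equal replicate numbers share an embryo, litter or day, so no block was used. Correlations of same-numbered arrays were -0.07 to 0.11, which does not exclude a pairing. The scripts were tested on simulated data. The genes, the other lists and the rule for named genes were chosen with earlier results of these data known. The rule names every gene of the set, prints every array of Myc, Max and genes passing on both scales, and names up to 4 genes of each other list by smallest adjusted p against wild type. Array values of Tfrc, Utp20, Wdr75, Ppan, Srm, Rrp1b and Gar1, and of weaker probe sets, were added after their values were seen. For epithelial and fibroblast markers only summed levels are given, while for leukocyte and endothelial markers the genes that passed are also named. Alternatives were the scale, filter, pseudocount, probe set rule, trend, groups fitted, a replicate block and leaving out each array. The number of arrays limits the precision.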

Additional observations from a re-analysis of the deposited data

Results flagged for a closer look

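Within the 4 Brg1-/- arrays, the highest or lowest array lay far from the other 3 by Dixon's ratio in 5 of the 35 genes, and in all 5 it was replicate 4. The nominal rate of this ratio is about 1 in 20 groups. How many of all 8403 genes it flags was not computed, so the 5 are not shown to be particular to this set. Replicate 4 was lowest for Ddx21 (452, nearest array 661), Nhp2 (1743, nearest 2355), Ebna1bp2 (570, nearest 701) and Tfrc (1717, nearest 2712), and highest for Max (310, nearest 139), all as quantile-normalized intensity.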

How the results depend on the processing

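The calls of Cad in both mutants and of Ncl in Snf5-/- cells passed under every alternative run, in each of the 10 fits that left out 1 array and on the deposited scale, except that Cad in Snf5-/- was lost on the deposited scale without wild type replicate 2 or 3 or Snf5-/- replicate 1 or 2. After quantile normalization, leaving out 1 array gave 2 to 6 genes higher and 1 to 4 lower in Snf5-/-, 5 to 10 higher in Brg1-/-, and 0 to 9 higher in Brg1-/- against Snf5-/-. The deposited scale gave 1 higher and 9 lower in Snf5-/-, 1 higher and 10 lower in Brg1-/-, and 0 higher between the mutants. With 1 array left out it gave 0 to 2 higher and 2 to 13 lower in Snf5-/-, 1 to 2 higher and 4 to 14 lower in Brg1-/-, and 0 to 1 lower between the mutants. Scaling to a common median gave 4 higher in Brg1-/-, and every probe set on its own gave 4 lower in Snf5-/-. Between the mutants, the trimmed mean and no filter gave 1 gene higher, and the median, no trend and only both groups gave 0. The cause was not tested. Among the fits that left out 1 array, shares of all genes are given only for those without Brg1-/- replicate 4. No share is given for the other scalings, filters, probe set rules, trend, groups fitted or block, apart from the deposited scale. In Brg1-/- against wild type 18 of the 35 genes had the other sign on the deposited scale, of which these 5 passed on one of the scales: Npm1 (-0.50), Gnl3 (-0.53), Nhp2 (-0.56), Wdr75 (-0.056) and Srm (-0.26). Same-numbered arrays of different genotypes had correlations of -0.07 to 0.11 (1 of 9 over 0.1), and 4 of 9 arrays correlated best with their own number. With the replicate number as a block, which leaves Brg1-/- replicate 4 without a partner, 7 genes were higher between the mutants, and the other 5 counts stayed within 1.5 times. Whether the 7 follow a rise over all genes in that fit was not tested.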
